A study of Mus musculus with 2 samples.

Results

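The 10 genes described here make the machinery that loads peptides onto MHC class II molecules. They are H2-Aa, H2-Ab1 and H2-Eb1, Cd74, H2-DMa, H2-DMb1 and H2-DMb2, H2-Oa and H2-Ob, and Ciita, taken by name from the 27032 genes of the count tables, and each of them was detected. They were measured by scRNA-Seq in splenic cells of wild-type mice after selection for CD11c with magnetic beads, untreated as far as the labels state, on a C57BL/6J background according to the methods. The 2 samples, called replicates 1 and 2 here, were marked with sample tags and captured in the same run on the BD Rhapsody system, which counts each captured transcript once by its unique molecular identifier (UMI). The methods state adult mice of both sexes for all experiments but not the number of animals behind each sample. The p-values below thus measure only spread between these 2 samples, which may be technical. In comparisons of cell classes, that spread was estimated for each gene over all 9 classes, not over the classes compared alone. With these samples the study asked how CD169+ marginal metallophilic macrophages and Langerin+ cDC1s communicate at steady state, and no treatment was compared.

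MHC class II molecules present peptides from the endolysosomal pathway to CD4+ T cells. H2-Aa and H2-Ab1 encode the α and β chains of I-A, and H2-Eb1 encodes the β chain of I-E, whose α chain is not made in C57BL/6 mice. The invariant chain, encoded by Cd74, guides new class II molecules to endosomes and leaves a fragment, CLIP, in their groove. H2-DM, a dimer of H2-DMa with a β chain from H2-DMb1 or H2-DMb2, removes CLIP and edits the bound peptides, and H2-O, made of H2-Oa and H2-Ob, inhibits H2-DM. Ciita encodes a coactivator of class II genes. It does not bind DNA itself but is recruited by the RFX complex on the X box and by NF-Y on the Y box of the promoters. Dendritic cells (DCs) and B cells carry class II constitutively, macrophages acquire it on stimulation, and mouse T and NK cells have little of it.

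Except for Cd74 and for Ciita, which lies on chromosome 16 of GRCm38 from 10480059 to 10528418 (GENCODE M21), the genes stand in the MHC on chromosome 17. H2-Oa lies from 34092340 to 34095234, H2-DMa from 34119541 to 34139101, H2-DMb2 from 34143307 to 34151555 and H2-DMb1 from 34153072 to 34160230. H2-Ob follows from 34238903 to 34254414, H2-Ab1 from 34257689 to 34269419, H2-Aa from 34282744 to 34287823 and H2-Eb1 from 34305867 to 34316674, and H2-Aa alone of these is on the reverse strand. Other gene models overlap H2-Oa, H2-DMa, H2-Eb1 and Ciita, in part on the opposite strand, and the sources used here do not say whether the counting used strand. H2-DMb1 and H2-DMb2 are close paralogs. Of the stretches of 50 bases in their transcripts, 27.2% of those of H2-DMb1 and 21.2% of those of H2-DMb2 occur in both genes, and the sources do not say how reads from there were assigned, so that the levels of this pair carry that uncertainty.

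Stretches of the promoters are shown because Ciita is recruited through the X and Y boxes of class II promoters. RefSeq promoter windows (GRCm38.p6, from 250 bases before the start of transcription to 50 after it) were matched for 7 of the 10 genes, with 2 starts for H2-DMa. Cd74 was left out of this search. The motifs CCNNGNAAC for the X box and ATTGG for the Y box were searched on both strands. The first matched in 15.1% and the second in 37.4% of all 32851 windows. The core of the X box, GNAAC, followed by ATTGG after 24 to 28 bases, a spacing chosen after the members' sequences had been seen, occurred in 0.858% of all windows and in those of 5 members. The stretches from the X box to the Y box read as follows, 5′ to 3′, with matches of the motifs or of the core in capitals.
H2-Oa (chr17:34092299-34092345, forward strand): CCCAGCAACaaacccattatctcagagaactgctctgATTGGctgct
H2-DMb2 (chr17:34145122-34145168, forward strand): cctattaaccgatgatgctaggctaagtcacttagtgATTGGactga
H2-DMb1 (chr17:34153093-34153139, forward strand): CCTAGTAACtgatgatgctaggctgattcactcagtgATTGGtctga
H2-Ob (chr17:34238814-34238857, forward strand): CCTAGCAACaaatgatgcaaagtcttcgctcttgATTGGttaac
H2-Aa (chr17:34287862-34287908, reverse strand): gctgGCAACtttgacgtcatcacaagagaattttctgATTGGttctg
H2-Eb1 (chr17:34305772-34305817, forward strand): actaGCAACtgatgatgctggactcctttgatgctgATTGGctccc
The full X box motif matched in H2-Oa, H2-DMb1 and H2-Ob, and its core alone in H2-Aa and H2-Eb1. In H2-DMb2, placed by its Y box at the spacing found in H2-DMb1, neither matched at that place. Its 9 bases there differ from those of H2-DMb1 by G5T, where the base of H2-DMb1 stands first and positions count from the first of the 9 bases. The windows of H2-DMa held no such pair. A match is a description of the letters, and no match says only that they are not in this window.

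Replicate 1 held 3308 cells with 46953398 UMIs and replicate 2 held 3085 cells with 43137746 UMIs, and 0 cell indices were shared between them. After cells had been filtered, 5653 cells remained, and each was put into the first class whose gate it met, which gave 4435 cells in a class. The gates, in order, were macrophages (at least 20 Vcam1 and 5 C1qb UMIs), mature DCs (2 Ccr7, 1 Fscn1), cDC1s (2 Clec9a, 1 Xcr1), plasmacytoid DCs (pDCs; 3 Siglech, 1 Ccr9), B cells (3 Cd79a), T cells (2 Cd3e), NK cells (1 Ncr1), DCIR2 cDC2s (2 Clec4a4) and CLEC10A cDC2s (2 of Clec10a and Cd209a together). In this order, replicates 1 and 2 held 293 and 130, 138 and 173, 684 and 570, 13 and 19, 65 and 172, 41 and 159, 38 and 36, 556 and 456, and 484 and 408 cells, and 616 and 602 cells met no gate. No gate uses a member. A marker counted as raised where it was more than 1 log2 unit above the other cells in both samples, and all 11 macrophage, 8 of 8 mature DC, 7 of 8 cDC1, 7 of 8 pDC and 7 of 7 B, T and NK cell markers were raised in the class named for them. The DCIR2 cDC2s had 2 of 7 and the CLEC10A cDC2s 4 of 7 raised, so that these names stand for the gates alone, and 209 and 156 of the DCIR2 cDC2s met the CLEC10A gate too. The marker lists of all these classes include the gate genes, which the choice of cells raises by itself. Clec4a4 is among the 2 raised markers of the DCIR2 cDC2s, and Clec10a and Cd209a are among the 4 of the CLEC10A cDC2s. Among the macrophages, 4 of 5 erythroid markers were raised as well. Their sum was 3742 and 914 UMIs per 1000000 UMIs of the class, written as CPM below, in replicates 1 and 2. The pDCs were few, with 9 of 13 and 12 of 19 cells meeting a later gate. In replicate 1 this was the DCIR2 cDC2 gate for 3 cells and the CLEC10A cDC2 gate for 6, and in replicate 2 the CLEC10A gate for 12. Of the 7 CLEC10A cDC2 markers, 3 were raised in pDCs too (Cd209a, Cd209d and Irf4).

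The 10 genes took up 5.81% and 5.94% of all UMIs of the CLEC10A cDC2s in replicates 1 and 2, 5.29% and 5.48% of those of the cDC1s and 4.67% and 4.65% of those of the DCIR2 cDC2s. They took up 4.97% and 5.75% in pDCs and 4.08% and 4.01% in mature DCs. In B cells the shares were 2.02% and 2.11%, in macrophages 0.837% and 1.44%, in NK cells 1.34% and 1.21% and in T cells 0.758% and 0.383%. All DC classes thus stood above the B cells in both samples. The macrophages had the higher share in replicate 2 and the T cells in replicate 1.

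H2-Aa, the I-A α chain, stood at 13332 and 13916 CPM in the CLEC10A cDC2s of replicates 1 and 2, at 11244 and 11799.6 CPM in the cDC1s and at 10422 and 10738 CPM in the DCIR2 cDC2s. It stood at 11684 and 14237 CPM in pDCs and at 9595 and 9629 CPM in mature DCs. The 2 samples of each of these 5 DC classes lay above every sample of the other classes, and none of them differed from its neighbour in the order of mean levels. B cells followed with 3719 and 3884 CPM, NK cells with 2895 and 2948 CPM, macrophages with 1456 and 2695 CPM and T cells with 1755 and 864 CPM. The step from mature DCs to B cells and the step from macrophages to T cells passed the test, and the 2 samples of the macrophages and of the T cells lay far apart, in opposite directions. H2-Ab1, H2-Eb1 and Cd74 held nearly the same order. Mean levels in the DC classes lay between 7545 and 12837 CPM for H2-Ab1, the I-A β chain, which was highest in cDC1s. Its step from there to the CLEC10A cDC2s did not pass the test. They lay between 6729 and 9168 CPM for H2-Eb1 and between 14956 and 20855 CPM for Cd74. Cd74 differed from the other three at the lower end. It stood at 9292 and 9342 CPM in B cells, 4360.4 and 7149 CPM in macrophages, 5047 and 4187 CPM in NK cells and 2831 and 1309.5 CPM in T cells, and NK and T cells differed as neighbours in this order. Macrophages and NK cells also did, with 0.63 ± 0.22 (adjusted p = 0.0344) as the log2 fold change ± SE by edgeR's test, but macrophages were the lower of them in CPM in replicate 1 and the higher in replicate 2.

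**Figure D1:**
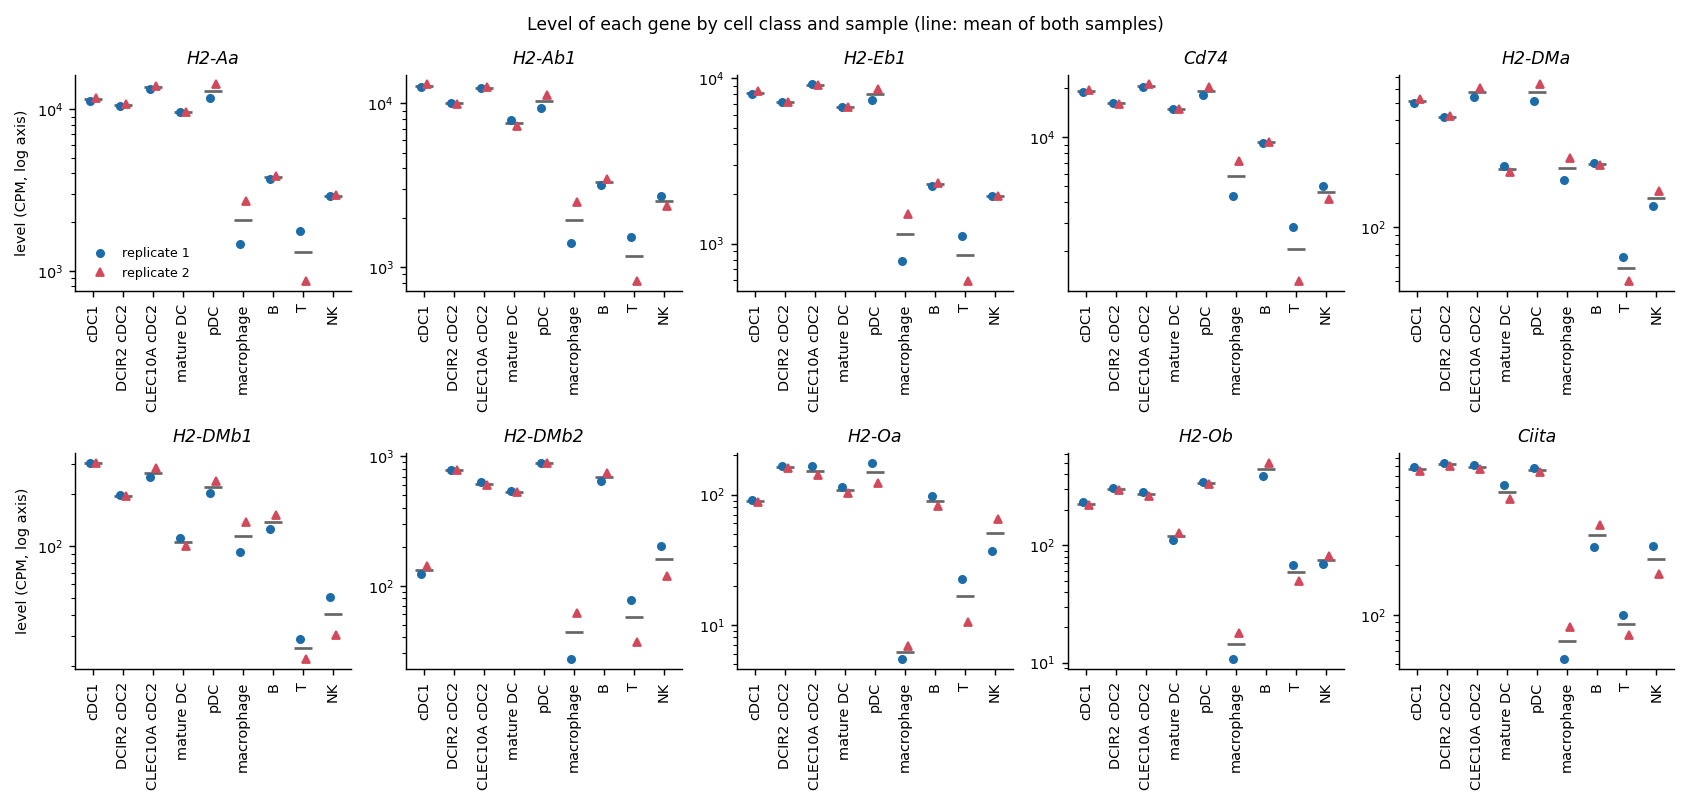
Level of each of the 10 genes in CPM (UMIs per 1000000 UMIs of a class, log axis) for the 9 gated classes, with circles for replicate 1, triangles for replicate 2 and a line for their mean. H2-DMb2 lies at 124 and 142 CPM in cDC1s, far below the other DC classes, and H2-Ob is highest in B cells, though the step to pDCs did not pass the test.

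The genes of H2-DM did not move together. H2-DMb2, one of the β chains, stood at 789.6 and 784 CPM in the DCIR2 cDC2s, at 630.1 and 599.6 CPM in the CLEC10A cDC2s and at 124 and 142 CPM in the cDC1s. It stood at 885 and 896 CPM in pDCs, 647 and 745 CPM in B cells and 542 and 528 CPM in mature DCs. NK cells held 201 and 119 CPM, T cells 77.3 and 36.6 CPM and macrophages 26.9 and 61.2 CPM. The level in cDC1s thus lay below that of the other 4 DC classes and of B cells in both samples, and as a neighbour in the order of levels it did not differ from that of NK cells. It was above that of T cells, the next class in this order, at 1.78 ± 0.32 (adjusted p = 1.74e-04 by edgeR's test). H2-DMb1, the other β chain, was highest in cDC1s, with 303 and 303 CPM, against 250.1 and 281 CPM in the CLEC10A cDC2s and 197 and 193 CPM in the DCIR2 cDC2s. It stood at 203 and 238 CPM in pDCs, 126 and 150.4 CPM in B cells, 91.9 and 137 CPM in macrophages and 106 ± 8.24 CPM (mean ± SD, n = 2) in mature DCs. In the order of levels, the step from DCIR2 cDC2s to B cells and the step from mature DCs to NK cells (50.4 and 30.6 CPM) passed the test. H2-DMa, the α chain, was highest in pDCs (517 and 639 CPM) and CLEC10A cDC2s (541 and 614 CPM). It stood at 503 and 525 CPM in cDC1s and 418 and 423 CPM in DCIR2 cDC2s, and mature DCs, with 222 and 205 CPM, lay beside B cells (231 and 226 CPM) and macrophages (186 and 247 CPM).

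The chains of H2-O, the inhibitor of H2-DM, were lowest in the macrophages. H2-Ob was highest in B cells, with 386 and 504 CPM, and stood at 346 and 329 CPM in pDCs, 304 and 297 CPM in DCIR2 cDC2s, 284 and 265 CPM in CLEC10A cDC2s and 233 and 219 CPM in cDC1s. The step from B cells to pDCs did not pass the threshold, at 0.45 ± 0.18 (adjusted p = 0.107 by edgeR's test). Mature DCs, with 109.7 and 127 CPM, differed from cDC1s as neighbours in this order. Macrophages were lowest, with 10.7 and 17.9 CPM, which rested on 59 and 44 UMIs, and differed from T cells (67.6 and 49.7 CPM). H2-Oa, the α chain, was highest in the DCIR2 cDC2s (165 and 159 CPM) and CLEC10A cDC2s (166 and 140.4 CPM), whereas B cells (97.3 and 81.1 CPM) lay beside cDC1s (91.4 and 87.9 CPM). In macrophages H2-Oa rested on 30 and 17 UMIs (5.42 and 6.93 CPM), and the difference from T cells (22.5 and 10.6 CPM) did not pass the threshold, at −0.90 ± 0.43 (adjusted p = 0.0929). Ciita, the coactivator, stood between 755 and 843 CPM in the resident cDC classes over both samples and at 784 and 737 CPM in pDCs. It stood at 614 and 505 CPM in mature DCs, 257 and 355 CPM in B cells, 262 and 177 CPM in NK cells, 99.8 and 75.7 CPM in T cells and 53.7 and 84.8 CPM in macrophages. The steps from mature DCs to B cells and from NK to T cells passed the test. Over the 10 genes, 24 of 80 pairs of neighbouring classes differed (edgeR's quasi-likelihood test, Benjamini-Hochberg adjusted over all genes within each pair). Of all tests of a gene between any pair of classes, 28.6% passed. These shares are not alike, because neighbours lie closest in each member's own order of levels, and they are not compared.

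To ask how the resident cDC classes differ, the UMIs of each class were summed per sample and all 18 sums were fitted together. H2-DMb2 was lower in cDC1s than in DCIR2 cDC2s by 5.16-fold, or −2.37 ± 0.23 (adjusted p = 6.84e-08), and lower than in CLEC10A cDC2s by 4.20-fold, or −2.07 ± 0.23 (adjusted p = 4.88e-07), as log2 fold changes with their standard errors. All adjusted p given here come from edgeR's quasi-likelihood test, Benjamini-Hochberg adjusted over all genes tested. H2-DMb1 went the other way against DCIR2 cDC2s, with 0.83 ± 0.15 (adjusted p = 1.92e-04), as did H2-DMa with 0.48 ± 0.14 (adjusted p = 0.00881) and H2-Ab1 with 0.56 ± 0.21 (adjusted p = 0.0448). H2-Oa was lower in cDC1s than in both cDC2 classes, with −0.66 ± 0.15 (adjusted p = 0.00207) against DCIR2 cDC2s and −0.64 ± 0.15 (adjusted p = 0.00340) against CLEC10A cDC2s. Both samples showed the direction of each of these differences. In all, 5 of 10 members were called (adjusted p under 0.05) between cDC1s and DCIR2 cDC2s, 3 higher and 2 lower, where 34.2% of all genes tested were called. Between cDC1s and CLEC10A cDC2s 2 of 10 were called, against 29.2% of all genes, so that neither count stands far from the share of all genes. With the sample as a block, H2-DMb1 was also called there, at 0.33 (adjusted p = 0.0330). The median log2 fold change of the members was 0.35 and −0.03, against 0.01 over all genes in each comparison. When the sums were scaled to total UMIs instead, the median of all genes moved to −0.18 and −0.12, and the share of called genes that were higher in cDC1s moved from 49.7% to 32.3% and from 48.6% to 35.4%. H2-DMb2 was then at −2.56 and −2.21, and the calls of H2-DMa (adjusted p = 0.108) and H2-Ab1 (adjusted p = 0.197) against DCIR2 cDC2s were lost, while H2-Ob was called (−0.41, adjusted p = 0.0391). The call of H2-Ab1 held in 4 of 8 other settings and was lost with DESeq2, DESeq2 size factors and doubled gates as well.

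**Figure D2:**
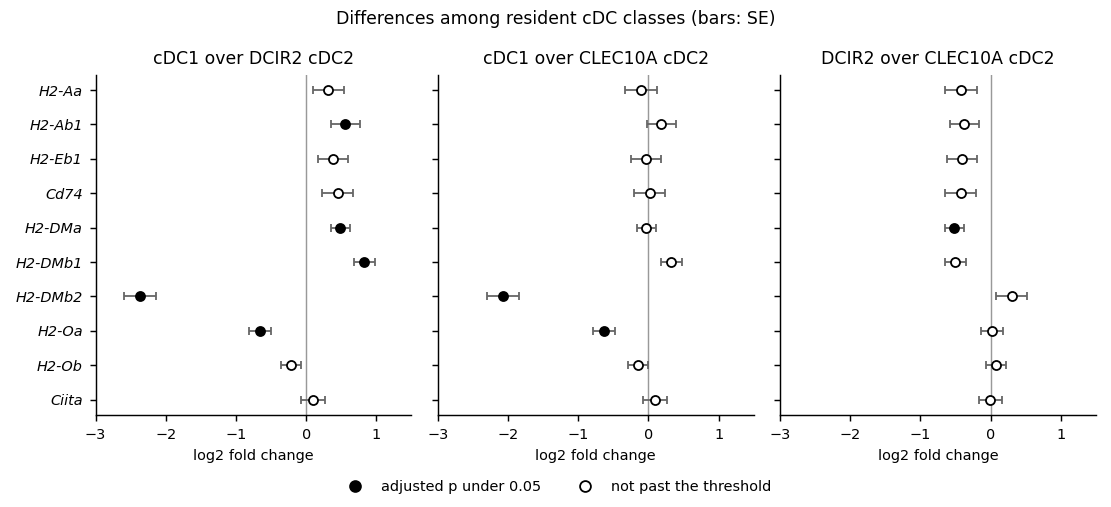
Log2 fold change of each member between the resident cDC classes, with bars for the standard error and filled circles for an adjusted p under 0.05. H2-DMb2 is the member farthest from 0, at −2.37 and −2.07 in cDC1s, while Ciita stays within 0.10 of 0 in all 3 panels.

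Between the DCIR2 and CLEC10A cDC2s, 1 of 10 members was called, against 5.54% of all genes. H2-DMa was lower in DCIR2 cDC2s, at −0.52 ± 0.14 (adjusted p = 0.0292), and H2-DMb1 followed at −0.50 ± 0.15 (adjusted p = 0.0596), which was called with the sample as a block, at −0.50 (adjusted p = 0.0110). With scaling to total UMIs the call of H2-DMa was lost (adjusted p = 0.0580). The log2 fold changes of H2-Aa, H2-Ab1, H2-Eb1 and Cd74 lay between −0.42 and −0.37 and did not pass the threshold, and their SE lay between 0.21 and 0.22. That SE carries the spread of all 9 classes. In replicates 1 and 2 taken singly, the values of these genes lay between −0.46 and −0.36. Cells that met both gates were counted as DCIR2 cDC2s.

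Mature DCs, which have taken up the Ccr7-dependent programme of migration, were set against the mean of the resident cDC classes. H2-DMa was lower by 2.24-fold (−1.17 ± 0.13, adjusted p = 3.92e-07), H2-DMb1 by 2.27-fold (−1.18 ± 0.14, adjusted p = 2.13e-06) and H2-Ob by 2.13-fold (−1.09 ± 0.14, adjusted p = 3.08e-06). Ciita was at −0.45 ± 0.14 (adjusted p = 0.0197) and H2-Ab1 at −0.57 ± 0.18 (adjusted p = 0.0166). H2-DMb2 was higher, at 0.48 ± 0.18 (adjusted p = 0.0440), and this mean includes the cDC1s. Against the single classes, H2-DMb2 was at 542 and 528 CPM in mature DCs, between the cDC1s and both cDC2 classes. H2-Aa, H2-Eb1 and Cd74 were at −0.24, −0.21 and −0.26, and H2-Oa was not called either, at −0.20. In all, 6 of 10 members were called, 1 higher and 5 lower, against 33.2% of all genes, with a median of −0.35 against −0.02 over all genes. The call of H2-Ab1 was lost with DESeq2 (adjusted p = 0.0613). That of H2-DMb2 was lost with scaling to total UMIs (0.42, adjusted p = 0.0809), as it was with DESeq2 and with doubled gates.

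In pDCs, DCs specialised for type I interferon, 1 of 10 members was called against the resident cDC classes, where 9.66% of all genes were. H2-DMb2 was higher by 1.96-fold, at 0.97 ± 0.20 (adjusted p = 0.00295) and in the same direction in both samples. The mean of the resident classes includes the cDC1s, and against DCIR2 cDC2s alone the difference was 0.08 ± 0.24 (adjusted p = 0.883). The other 9 members lay between −0.36 and 0.17, around a median of all genes that stood at −0.16 in this comparison and at 0.02 with scaling to total UMIs, which moved the share of called genes that were higher from 50.8% to 70.1%. These values rest on 13 and 19 cells, of which 9 and 12 also met a cDC2 gate, and the part of such cells was not tested. With no filter on low counts 7 members were called.

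**Figure D3:**
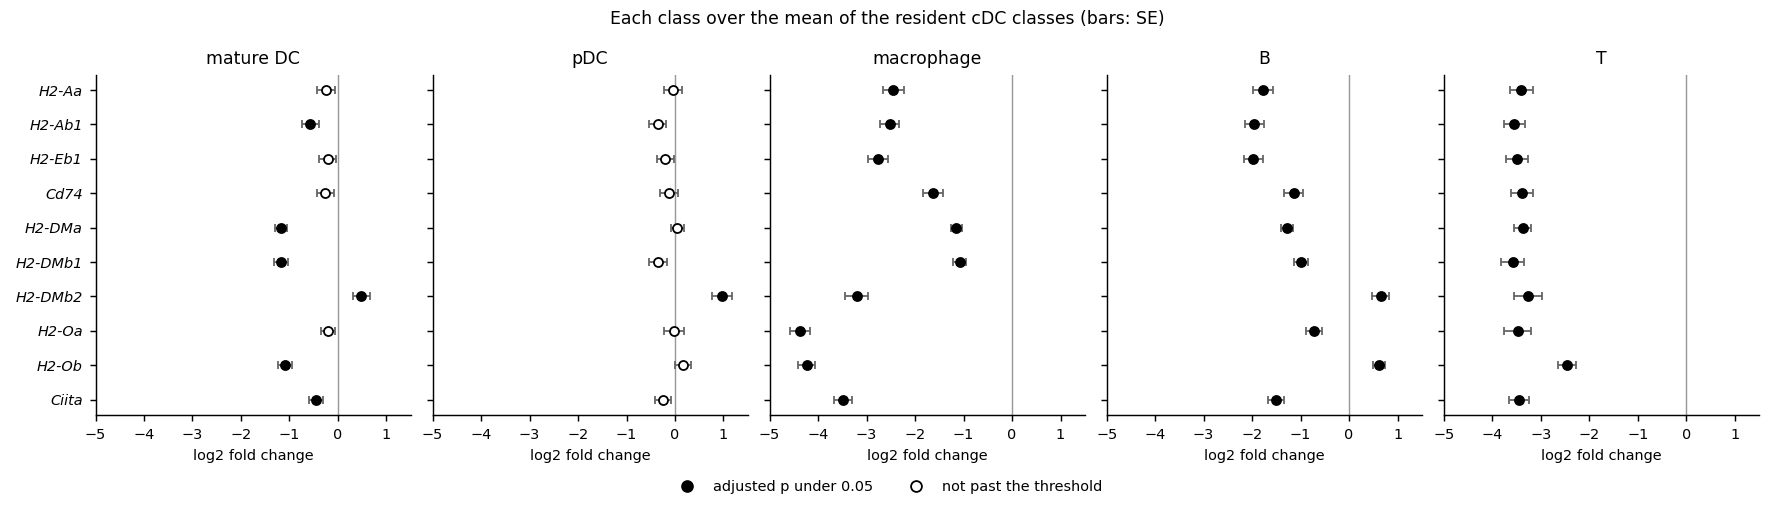
Log2 fold change of each member in mature DCs, pDCs, macrophages, B cells and T cells over the mean of the 3 resident cDC classes, with bars for the standard error and filled circles for an adjusted p under 0.05. In macrophages H2-Oa and H2-Ob lie at −4.38 and −4.23 and H2-DMa and H2-DMb1 at −1.15 and −1.08, and in B cells H2-DMb2 and H2-Ob lie above 0.

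In macrophages all 10 members were lower than in the resident cDC classes and were called, against 54.0% of all genes, with a median of −2.65 against −0.03 over all genes. The chains of H2-O were lowest, H2-Oa by 20.8-fold (−4.38 ± 0.21, adjusted p = 5.52e-13) and H2-Ob by 18.8-fold (−4.23 ± 0.18, adjusted p = 6.23e-14), followed by Ciita by 11.2-fold (−3.49 ± 0.18, adjusted p = 1.26e-12) and H2-DMb2 by 9.20-fold (−3.20 ± 0.24, adjusted p = 4.23e-10). H2-Eb1 was lower by 6.80-fold, H2-Ab1 by 5.76-fold, H2-Aa by 5.45-fold and Cd74 by 3.10-fold (−1.63 ± 0.20, adjusted p = 7.50e-07). H2-DMa and H2-DMb1 were lower by 2.21-fold and 2.12-fold, with −1.15 ± 0.12 (adjusted p = 1.05e-07) and −1.08 ± 0.14 (adjusted p = 1.10e-06). Each of the 10 differences was smaller in replicate 2. That of H2-Aa was −2.91 in replicate 1 and −2.11 in replicate 2, and that of Ciita −3.83 and −3.14. Of the macrophages, 13 of 293 and 3 of 130 also met the cDC1 gate. Without the cells that met more than 1 gate, H2-DMb2 was at −3.83, H2-Oa at −5.10 and Ciita at −3.71. The part of the erythroid transcripts, which were higher in replicate 1, was not tested.

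In B cells all 10 members were called against the resident cDC classes, 8 lower and 2 higher, where 36.3% of all genes were called. H2-Ob was higher by 1.53-fold (0.61 ± 0.12, adjusted p = 4.76e-04) and H2-DMb2 by 1.57-fold (0.65 ± 0.18, adjusted p = 0.00696). H2-Oa, the partner of H2-Ob, was lower (−0.73 ± 0.17, adjusted p = 0.00163), as were H2-DMa, the partner of H2-DMb2, at −1.28, and the other β chain, H2-DMb1, at −0.99. The excess of H2-DMb2 is over a mean that includes the cDC1s, and against DCIR2 cDC2s alone B cells were at −0.24 ± 0.22 (adjusted p = 0.468). The classical chains were lower by 3.44-fold to 3.94-fold, Cd74 by 2.21-fold and Ciita by 2.85-fold, and both samples showed every one of these directions. Scaling to total UMIs moved the median of all genes from −0.04 to 0.12 and the share of called genes that were higher from 45.8% to 58.1%. H2-Ob was then at 0.77 and H2-DMb2 at 0.80, and all 10 calls held in each of the 8 other settings.

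T cells, which in the mouse make little class II of their own, were lower than the resident cDC classes for all 10 members, with log2 fold changes between −3.58 and −2.46, and all were called, against 33.7% of all genes. The median of all genes moved from −0.04 to 0.13 with scaling to total UMIs, and the share of called genes that were higher from 47.5% to 60.4%. NK cells stood above T cells for 8 of 10 members, against 8.01% of all genes called, with H2-Aa at 1.13 ± 0.24 (adjusted p = 0.00381) and Ciita at 1.36 ± 0.26 (adjusted p = 0.00148). These sums came from few cells. The 10% of cells with the highest count, a share chosen after the values were seen, held 79.9% and 73.9% of all UMIs of H2-Aa, H2-Ab1, H2-Eb1 and Cd74 in the T cells of replicates 1 and 2, and 63.9% and 82.0% in the NK cells, against 17.3% and 17.7% in the cDC1s. The median T cell held 3 and 2 UMIs of H2-Aa and the median NK cell 2 in each sample. Without the cells that met more than 1 gate, 2 of 10 members were called between NK and T cells, H2-DMb2 and Ciita, and H2-Aa was at 0.84 (adjusted p = 0.0849). With all gates doubled 4 were called.

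Ratios of UMIs within a class do not depend on how the classes are scaled, and they set the cDC1s and the macrophages apart. Per UMI of H2-DMb1, H2-DMb2 held 0.410 and 0.468 UMIs in the cDC1s of replicates 1 and 2 and 0.293 and 0.446 in the macrophages. It held 2.52 and 2.14 in the CLEC10A cDC2s, 4.86 and 5.28 in mature DCs, 4.37 and 3.76 in pDCs and 5.15 and 4.95 in B cells. On the log2 scale the mean was 2.01 ± 0.01 in DCIR2 cDC2s, −1.19 ± 0.14 (SD, n = 2) in cDC1s and −1.47 ± 0.43 in macrophages, and it lay between 1.08 and 2.34 in the 7 classes other than cDC1s and macrophages. No sample of these 7 overlapped with those of the cDC1s or macrophages. In macrophages, H2-DMb2 (26.9 and 61.2 CPM) did not differ from T cells (77.3 and 36.6 CPM) by edgeR's test (adjusted p = 0.917). The ratios of T and NK cells serve as background only. They rest on 9 and 27 H2-DMb1 UMIs in T cells and 19 and 9 in NK cells of replicates 1 and 2. The genes differ in length and share sequence, so that the ratio is compared between classes and not read as a ratio of molecules. The UMIs of H2-Oa and H2-Ob together, set against those of the 3 H2-DM genes, gave a log2 ratio of −4.24 and −4.16 in macrophages, −1.96 and −1.85 in mature DCs, −1.52 and −1.66 in cDC1s, −1.58 and −1.62 in DCIR2 cDC2s and −1.05 and −0.94 in B cells. The macrophages lay below and the B cells above every DC class in both samples. Ciita set against the sum of H2-Aa, H2-Ab1, H2-Eb1 and Cd74 gave −7.22 and −7.35 in macrophages, while the other 8 classes lay between −6.25 and −5.57 over both samples.

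**Figure D4:**
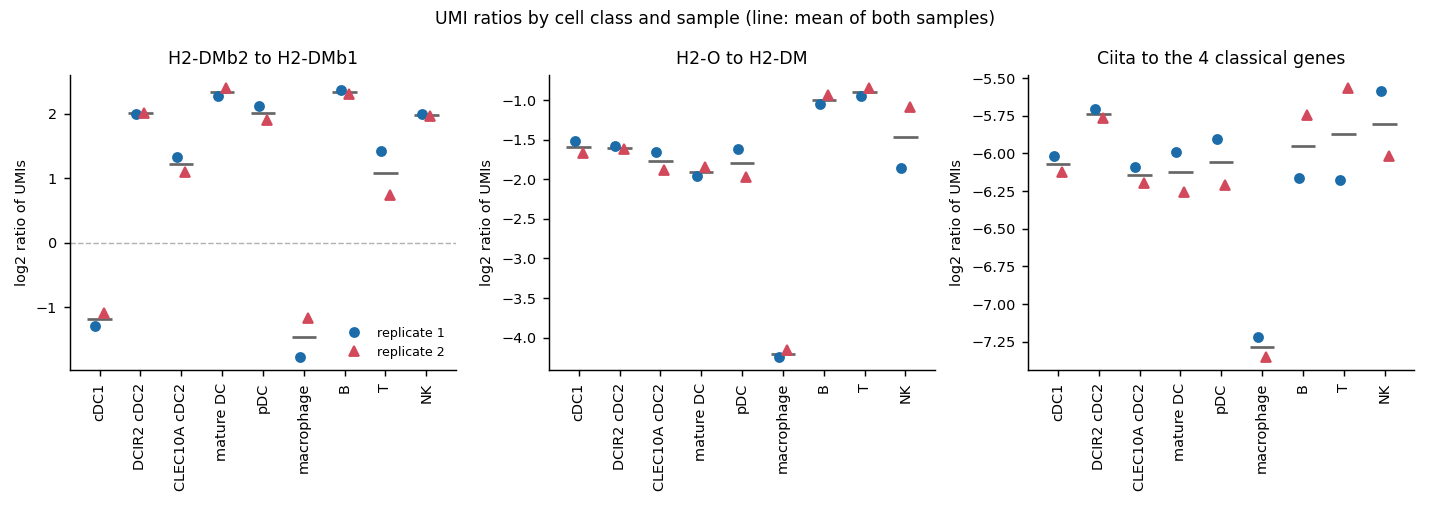
Log2 ratio of UMIs by class for H2-DMb2 over H2-DMb1, for the H2-O genes over the H2-DM genes and for Ciita over the 4 classical genes, with circles for replicate 1, triangles for replicate 2 and a line for the mean. The first ratio is below 0 in cDC1s and macrophages only, and the other ratios are lowest in macrophages.

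Single cells differed little from each other within the resident cDC classes. In cDC1s, the sum of H2-Aa, H2-Ab1, H2-Eb1 and Cd74 had a median of 51046 and 52605 CPM per cell in replicates 1 and 2, with a 10th percentile of 37478 and 38099 and a 90th of 66969 and 68443 CPM. The 90th was 1.79 and 1.80 times the 10th percentile in cDC1s, 2.23 and 2.13 times in DCIR2 cDC2s and 2.06 and 2.01 times in CLEC10A cDC2s. Mature DCs were far wider. Their median was 40326 and 41528 CPM, below that of the cDC1s, but their 10th percentile was much farther below, at 2774 and 5329 CPM. Of 138 and 173 mature DCs, 29 and 43 also met another gate, most often that of DCIR2 cDC2s (19 and 21), and the part of such cells was not tested. Macrophages had a median of 6281 and 11924 CPM and a 90th percentile of 15769 and 22771 CPM, so that the difference between the samples was present in the typical cell. Median T and NK cells held 1587 and 1066 and 1258 and 1205 CPM, but the 90th percentile of the NK cells was 34009 and 27083 CPM.

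**Figure D5:**
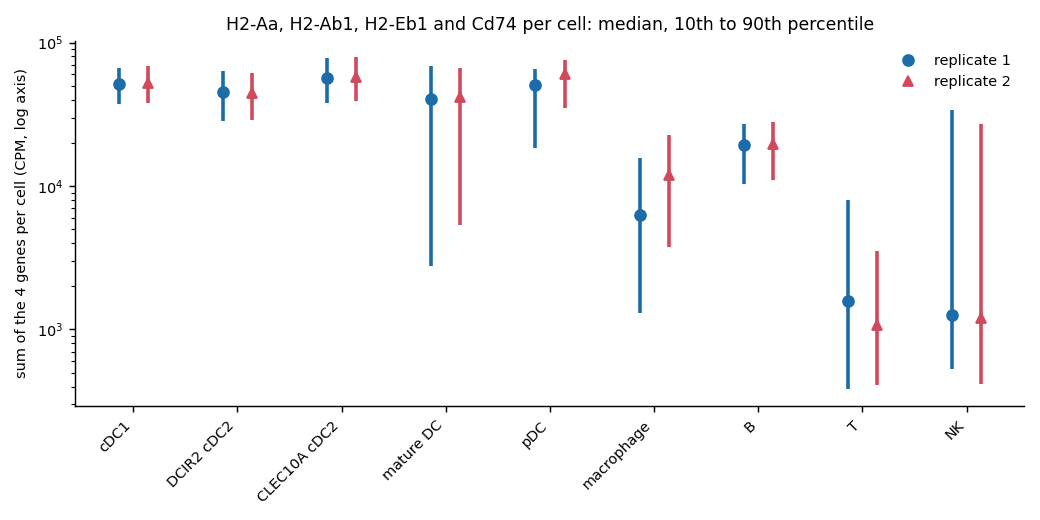
Sum of H2-Aa, H2-Ab1, H2-Eb1 and Cd74 per cell in CPM (log axis) by class, with the median as a point and a line from the 10th to the 90th percentile for each sample. The resident cDC classes are narrow, whereas the 90th percentile of mature DCs is 24.8 and 12.4 times the 10th in replicates 1 and 2.

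To compare shares of cells across classes of different depth, each cell was thinned to 2000 UMIs, with exact binomial (Clopper-Pearson) intervals at 95% that cover counting error only. An H2-DMb2 UMI was then found in 19.6% (16.7 to 22.8) of replicate 1 and 23.5% (20.1 to 27.2) of replicate 2 cDC1s, in 76.4% (72.7 to 79.9) of replicate 1 and 74.1% (69.8 to 78.1) of replicate 2 DCIR2 cDC2s and in 62.6% (58.1 to 66.9) of replicate 1 and 61.3% (56.4 to 66.0) of replicate 2 CLEC10A cDC2s. In T cells, taken as cells that should lack the gene, it was 12.2% (4.08 to 26.2) of replicate 1 and 3.14% (1.03 to 7.19) of replicate 2. Before thinning, the shares were 76.5% and 77.4% in cDC1s and 19.5% and 8.81% in T cells, at median depths of 19520.5 and 20952.5 UMIs in the former and 6145 and 6490.0 UMIs in the latter. The intervals of cDC1s and T cells thus overlapped once thinned in replicate 1, where the T cell class held 41 cells, and did not in replicate 2. In the summed UMIs of both samples, H2-DMb2 was higher in cDC1s than in T cells, at 1.78 ± 0.32 (adjusted p = 1.74e-04 by edgeR's test). For Ciita the thinned share was 74.0% (70.5 to 77.2) of replicate 1 and 71.6% (67.7 to 75.2) of replicate 2 cDC1s, 50.7% (42.1 to 59.3) of replicate 1 and 46.8% (39.2 to 54.5) of replicate 2 mature DCs, 8.87% (5.88 to 12.7) of replicate 1 and 12.3% (7.20 to 19.2) of replicate 2 macrophages and 9.76% (2.72 to 23.1) of replicate 1 and 10.1% (5.86 to 15.8) of replicate 2 T cells. The macrophages lay within the intervals of the T cells, so that at this depth a Ciita UMI in a macrophage could not be told apart from background, and without thinning it was found in 39.9% and 50.0% of the macrophages against 26.8% and 18.2% of the T cells. H2-Ob UMIs were found in 60.0% (47.1 to 72.0) of replicate 1 and 61.6% (53.9 to 68.9) of replicate 2 B cells. In macrophages it was 4.44% (2.38 to 7.47) of replicate 1 and 3.85% (1.26 to 8.75) of replicate 2. These intervals overlapped those of the T cells (9.76% (2.72 to 23.1) of replicate 1 and 4.40% (1.79 to 8.86) of replicate 2). In the summed UMIs, however, T cells were above macrophages for H2-Ob, at 1.77 ± 0.26 (adjusted p = 1.02e-05 by edgeR's test). By contrast, H2-Aa was found in 75.4% (70.1 to 80.2) of replicate 1 and 91.5% (85.4 to 95.7) of replicate 2 macrophages and in 56.1% (39.7 to 71.5) of replicate 1 and 50.3% (42.3 to 58.3) of replicate 2 T cells, with intervals that were apart in replicate 2 and overlapped in replicate 1.

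Langerin+ cDC1s, a subset at the marginal zone, were taken as cDC1s with a Cd207 UMI, 116 and 113 cells, against 568 and 457 without. Cd207 was left out of the fit. Cd74 stood at 20634 and 21044 CPM in Langerin+ and at 18651 and 19078 CPM in Langerin- cDC1s, at 0.24 ± 0.02 (adjusted p = 0.00260). H2-Eb1 stood at 9066 and 8970.4 against 7767 and 8181 CPM (0.27 ± 0.03, adjusted p = 0.00656). The I-A chains followed, H2-Aa at 0.22 ± 0.03 (adjusted p = 0.0119) and H2-Ab1 at 0.23 ± 0.03 (adjusted p = 0.00529). These 4 were called, against 0.869% of all genes, and were higher in both samples, H2-Eb1 by 1.21-fold. Ciita (0.15 ± 0.06, adjusted p = 0.308), H2-DMa (0.22 ± 0.06, adjusted p = 0.169) and H2-DMb1 (0.26 ± 0.07, adjusted p = 0.149) were not called, and H2-DMb2 was at −0.04, with opposite directions in the samples. With the sample as a block 8 were called, adding H2-DMb1 at 0.26 (adjusted p = 0.00300), H2-DMa at 0.22 (adjusted p = 0.00125), H2-Ob at 0.22 (adjusted p = 0.0481) and Ciita at 0.15 (adjusted p = 0.0213), and with DESeq2 1 was. The Langerin+ cells were deeper, with a median of 22445 and 23444 UMIs against 19023.5 and 20248.0, and the part of depth was not tested. Scaling to total UMIs moved the share of called genes that were higher from 50.0% to 25.7%. Cd74 was then at 0.14, H2-Ab1 at 0.14 and H2-Eb1 at 0.18, and the call of H2-Aa was lost (0.13, adjusted p = 0.101), as it was with all cells.

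Macrophages with a Siglec1 UMI, 112 and 56 cells, were set against the 181 and 74 without in the same way, with Siglec1 left out. H2-Aa stood at 1257 and 2241 CPM in the former and at 1598 and 3063 CPM in the latter, and H2-Eb1 at 666 and 1209 against 868 and 1747 CPM. Both samples had lower values with Siglec1, but the samples differed from each other by more than the groups did. No member was called, against 0.0209% of all genes, at −0.43 ± 0.27 (adjusted p = 0.999) for H2-Aa, and 347 genes had an unadjusted p under 0.05 with edgeR and 87 with DESeq2, which called 0 members as well. With the sample as a block, which takes out the difference between samples, H2-Eb1 was called at −0.47 (adjusted p = 2.53e-05), H2-Aa at −0.41 (adjusted p = 2.53e-05) and Cd74 at −0.24 (adjusted p = 0.0142).

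Of a list of 27 further names of the pathway, older and newer names of some genes included, 22 were in the tables. In macrophages, 9 were higher and 5 lower than in the resident cDC classes, where 54.0% of all genes were called. Proteases of the endolysosome were among the higher ones. Ctsd, encoding cathepsin D, stood at 707 and 629.7 CPM against 3.69 and 3.13 CPM in cDC1s, and was at 6.49 ± 0.13 (adjusted p = 9.62e-19) against the mean of the resident cDC classes, where Ctsb, Ctsl and Lgmn, the asparaginyl endopeptidase, were at 4.85, 5.31 and 4.08. Ctss, the cathepsin that degrades the invariant chain, was at 1.38 ± 0.11 (adjusted p = 1.66e-09). Rfx5, a subunit of the complex on the X box, was lower (−1.40 ± 0.16, adjusted p = 4.04e-07), as were Nfya and Nfyb, subunits of NF-Y, at −1.16 and −0.84.

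Between the cDC1s and the DCIR2 cDC2s, 4 genes of the list were higher and 9 lower in cDC1s, where 34.2% of all genes were called. Cst3, encoding cystatin C, an inhibitor of cysteine cathepsins, stood at 17547 and 17965 CPM in cDC1s against 1172 and 1217 CPM in DCIR2 cDC2s and 1814 and 1790.3 CPM in CLEC10A cDC2s (4.09 ± 0.38, adjusted p = 4.84e-08 and 3.44 ± 0.37, adjusted p = 4.33e-07). Ctss stood at 697 and 741 CPM in cDC1s and at 1354 and 1328 CPM in DCIR2 cDC2s (−0.70 ± 0.15, adjusted p = 7.15e-04). H2-Eb2, a further class II β gene, was low in the same class as H2-DMb2, with 14.7 and 15.4 CPM in cDC1s, 190.2 and 184 CPM in DCIR2 cDC2s and 131 and 104 CPM in CLEC10A cDC2s (−3.44 ± 0.23, adjusted p = 4.67e-10 and −2.83 ± 0.23, adjusted p = 1.01e-08). Against CLEC10A cDC2s, 2 genes of the list were higher and 10 lower (29.2% of all genes called), and between both cDC2 classes 0 were higher and 2 lower in DCIR2 cDC2s (5.54% of all genes called).

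In mature DCs, 10 genes of the list were higher and 1 was lower than in the resident cDC classes, where 33.2% of all genes were called. The one that was lower was March1, the ubiquitin ligase that removes class II from the surface, at 151 and 121 CPM in mature DCs against 529 and 451 CPM in cDC1s and 356 and 289.8 CPM in DCIR2 cDC2s (−1.43 ± 0.28, adjusted p = 4.56e-04). Cd83, whose product counteracts that ligase, stood at 1698 and 1910.3 CPM against 809.8 and 930.3 and 527 and 724 CPM (1.42 ± 0.18, adjusted p = 3.87e-06). H2-Eb2 was highest in mature DCs, with 503 and 471 CPM (2.88 ± 0.16, adjusted p = 2.32e-11), while Rfx5 was at 0.46 ± 0.15 (adjusted p = 0.0205), opposite to Ciita. In pDCs 5 were higher and 3 lower (9.66% of all genes called), led by Ctsl at 3.74 ± 0.44 (adjusted p = 1.14e-05) and Lag3, a receptor of class II, at 3.59 ± 0.30 (adjusted p = 1.52e-07). In B cells 2 were higher and 10 lower (36.3% of all genes called), with Ctss at −0.95 and Cst3 at −3.26. In T cells 2 were higher and 13 lower (33.7% of all genes called), and the higher ones were Cd4 and Ctsd. In NK against T cells 5 were higher and 1 was lower (8.01% of all genes called). Cst3 alone of the list was called in Langerin+ cDC1s, of 21 tested (0.869% of all genes called), at 0.35 ± 0.02 (adjusted p = 5.06e-04), and 0 of 21 were called with Siglec1, where edgeR's test gave 347 genes of the whole table an unadjusted p under 0.05 and DESeq2 87.

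Over the 18 sums of a class and a sample, the members' levels moved together to different degrees, which is given as a description because the sums share 2 libraries and differ in depth. H2-Aa and H2-Eb1 had a Pearson correlation of 1.00 on the log scale and H2-Aa and Ciita one of 0.96, whereas H2-DMb1 and H2-DMb2 had 0.56, the lowest of the 45 pairs. H2-DMb2 was closer to H2-Oa (0.90) and H2-Ob (0.85) than to its partner H2-DMa (0.61). Among 5788 other genes, those most like the mean of H2-Aa, H2-Ab1, H2-Eb1 and Cd74 were Aim2 (0.93), Zfp516 (0.93), Gm6377 (0.92), Gm20513 (0.92), Spag9 (0.91). Those most like Ciita were Baz1a (0.96), Aim2 (0.94), Bri3bp (0.93), Prkar2b (0.93), Gm20513 (0.93), and those most like the mean of H2-Oa and H2-Ob were Napsa (0.97), Bcl11a (0.96), Lrrk2 (0.96), Rnase6 (0.95), Kmo (0.94). Gm20513 is a gene model on the strand opposite to H2-Eb1 and overlaps it, so that its reads and those of H2-Eb1 cannot be told apart without strand.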

How the data were processed

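Splenic CD11c+ cells of 2 wild-type samples were analysed. The deposited values are raw UMI counts per gene and cell, made by the authors, per the file headers and labels, with the BD Rhapsody WTA Analysis Pipeline 1.12.1 (GRCm38 with GENCODE vM19, refined cell calling, intronic reads counted). Correction of UMIs and cell calling by that pipeline bound what can be counted, and other samples of the run are not analysed here. The submitters' processing notes also name R 4.2.3 and Seurat 4.3.0.1.

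Cells within 3 median absolute deviations of their sample's mean, as the methods state but with the deviation scaled by 1.4826, a factor they do not give, and with at least 200 genes were kept and gated by UMIs, a cell of several gates going to the first. No doublet caller was run, and cells of 1 gate alone are an alternative. UMIs were summed per class and sample, gate genes were left out, and edgeR 4.0.16 in R 4.3.3 was fitted to 18 sums (TMM, filterByExpr, quasi-likelihood test, two-sided, Benjamini-Hochberg over all genes, threshold 0.05). Splits by Cd207 and Siglec1 used 4 sums each. The SE given with a fold change was derived as its absolute log2 value over the square root of the test's F statistic. Resident cDCs were the mean log2 level of 3 classes, weighted equally. The fit to 18 sums was tested on simulated data for cDC1s against DCIR2 cDC2s only, and the fits to 4 sums were not. Class totals ran from 187601 to 13271670 UMIs.

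Classes share samples, so the sample pairs them. Deviations from class means correlated over pairs of classes by −0.03 to 0.38 (median 0.06), and the fit with the sample as a block is an alternative, beside DESeq2 1.42.0, total UMIs, DESeq2 size factors, no filter on low counts, all cells, doubled gates and each sample alone. Named are all members and genes of a fixed list of the pathway. The genes of that list given with values were picked after their values were seen. Also named are the 5 genes with the highest correlation to a mean of members or to Ciita. They were taken from genes with at least 50 CPM in both samples of a class. The members, gates and lists were chosen with earlier results of these data known. No table of the authors' comparisons was used. Levels are compared between classes and not between genes of different length. In sums over cells, fewer transcripts per cell and fewer cells that carry them cannot be told apart without the values per cell. Python 3.11.15, numpy 2.4.6, pandas 2.3.3, scipy 1.17.1 and matplotlib 3.10.9 were used.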

Additional observations from a re-analysis of the deposited data

How the results depend on the processing

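The fits across classes estimated the spread over 18 sums and those by Langerin and Siglec1 over 4, and leaving out either sample left a fold change with no test. In these fold changes the direction of every called member held. Members that were not called were left out of this check. Some of them turned, as H2-Oa by Siglec1 did, at −1.43 in replicate 1 and 1.89 in replicate 2. Of the 8 other settings, total UMIs kept 97 of 110 member results on the same side of the threshold and in the same direction, DESeq2 size factors 106, no filter on low counts 87, the replicate block 100, all cells 105, one gate 98 of 109 and doubled gates 98 of 109, and H2-Oa by Siglec1 had no value under the latter pair. DESeq2 lost 6 calls and turned 3 directions. The pDCs rest on 13 and 19 cells. The cause of the changes below was not tested.

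Members called were 5 between cDC1s and DCIR2 cDC2s but 8 with no filter on low counts. They were 1 between DCIR2 and CLEC10A cDC2s, but 0 with total UMIs, 5 with no filter, 2 with the replicate block and 2 with one gate. They were 1 in pDCs but 7 with no filter, and 8 for NK against T cells but 2 with one gate and 4 with doubled gates. For Langerin they were 4, but 1 with DESeq2 and 8 with the replicate block, and for Siglec1 they were 0, but 2 with no filter and 3 with the replicate block. Neighbouring classes that differed were 24, but 42 with no filter. Beside the calls given in the report, the replicate block changed no other call of a member.

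The summed level of the members in the resident cDC classes was 53081 ± 678 CPM (SD, n = 2), and moved to 52266 with all cells, to 52029.7 with one gate and to 54236 as a mean over cells. The log2 ratio of H2-DMb2 to H2-DMb1 in cDC1s was −1.19 and moved to −1.33 with one gate. The share of cDC1s with an H2-DMb2 UMI, 21.5% as a mean of both samples, was 11.6% thinned to 1000 UMIs, 36.1% thinned to 4000 and 76.9% with no thinning. Over the whole table, 96 genes were called for Langerin, but 443 with no filter, 652 with the replicate block, 47 with one gate and 59 with doubled gates. For Siglec1 2 were called, but 74 with no filter, 50 with the replicate block, 10 with all cells, 1 with DESeq2, 3 with doubled gates, and 0 with total UMIs or one gate (336 and 338 genes at an unadjusted p under 0.05 with edgeR).

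Directions turned only for members that were not called. Between cDC1s and DCIR2 cDC2s Ciita was at −0.093 with total UMIs. Between cDC1s and CLEC10A cDC2s, with no filter H2-Eb1 was at 0.0076 and H2-DMa at 0.0049, and with total UMIs Ciita was at −0.041. There Cd74 was at −0.0135 with DESeq2, −0.11 with total UMIs, −0.0135 with DESeq2 size factors, −0.053 with all cells and −0.029 with doubled gates. Between the cDC2 classes H2-Oa was at −0.077 with one gate and −0.084 with doubled gates, H2-Ob at −0.029 with one gate, and Ciita at 0.053 with total UMIs and 0.012 with no filter. In pDCs H2-Aa was at 0.018 with DESeq2, 0.019 with its size factors and 0.13 with total UMIs, Cd74 at 0.058 with total UMIs, and H2-DMa at −0.17 with no filter, −0.012 with all cells, −0.40 with one gate and −0.13 with doubled gates. There H2-Oa was at 0.044 with DESeq2, 0.044 with its size factors and 0.16 with total UMIs, and H2-Ob at −0.046 with no filter and −0.054 with doubled gates. For Langerin H2-DMb2 was at 0.040 with one gate and 0.12 with doubled gates. For Siglec1 H2-Oa was at −0.00018 with the replicate block and −0.34 with all cells.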
